A study of Mus musculus with 6 samples.

Results

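The mitochondrial solute carriers of family 25 are the proteins through which nucleotides, phosphate, keto acids, amino acids, cofactors and iron cross the inner mitochondrial membrane. They were chosen here by name, as the genes whose symbol is Slc25a followed by a number. Among 35333 genes restored from the deposited values, 47 were such carriers, and 34 of them had a mean of at least 1 FPKM over the 6 libraries and were tested. FPKM is the number of sequenced fragments of a gene per kilobase of its length and scaled to the total of its library, so that levels of different genes can be compared per length. The 13 remaining carriers stayed under that level and are given by their levels alone.

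The RNA came from mouse bone marrow-derived macrophages (BMDMs), cells differentiated in culture with M-CSF, and was sequenced in 3 Ctrl libraries without ZA and 3 ZA libraries taken 12 h after ZA stimulation. ZA is zoledronic acid, a nitrogen-containing bisphosphonate that inhibits farnesyl diphosphate synthase in the mevalonate pathway. The marrow came from C57BL/6 mice, and no transgene or deletion is named for either group. Neither the dose for these libraries nor whether cultures came from separate animals is given, so p-values measure the spread between these libraries only, which may be technical. The study asked how ZA affects mitochondria in macrophages, and the comparison here asks whether the RNA of their carriers differed between the groups.

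As background, the carriers share one fold, and many of them exchange a solute of the matrix for one of the cytosol. Adenine nucleotide carriers send ATP out in return for ADP, and the phosphate carrier brings in the phosphate that ATP synthase uses. The citrate carrier sends citrate to the cytosol, where it is cleaved to acetyl-CoA for the synthesis of fatty acids and sterols, and citrate export is known as a supply route in activated macrophages. Mitoferrins bring iron in for heme and iron-sulfur clusters, and other members carry the glutathione, S-adenosylmethionine, NAD and folate of the matrix. The family also holds a few proteins that are not carriers of the inner membrane, such as Slc25a46 of the outer membrane and Slc25a17 of peroxisomes.

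Macrophage marker genes defined the libraries, with 8 of 8 tested and Lyz2, a lysozyme of macrophages, between 20472 and 24669 FPKM. The T cell gene Cd3e and the erythroid gene Alas2 stayed at or under 0.0793 FPKM. Other lymphocyte and erythroid markers were higher, up to 0.623 FPKM for Cd79a and 2.54 FPKM for Hba-a1, each in a Ctrl library. The neutrophil gene Ly6g was listed at 0 in all 6 libraries. Genes of neutrophils and their precursors were low, and their summed level over 10 genes was 35.4 to 50.9 FPKM in Ctrl and 31.5 to 37.1 FPKM in ZA. Among the 6 of them tested, 4 had an unadjusted limma p under 0.05 and were lower in ZA, beside 4.85% of all genes tested, and the macrophage receptors Csf1r and Adgre1, 2 of 8 macrophage markers, had one and were higher, beside 7.5%. Over 6 stromal and endothelial markers the sum was 19.5 to 34.7 FPKM in Ctrl and 17.1 to 24.97 FPKM in ZA. All 5 of them that were tested lay lower in ZA, where 56.9% of all genes tested were higher. Their median log2 fold change was -0.20. Of the 5, 1, the matrix gene Dcn, had an unadjusted limma p under 0.05, beside 4.85% of all genes (log2 fold change -0.34, limma adjusted p = 0.398). Each of the 5 also fell from replicate 1 to 2 to 3 within both groups. For Dcn the values were 14.7, 11.8 and 9.02 FPKM in Ctrl and 9.95, 9.03 and 8.05 FPKM in ZA. The endothelial gene Cdh5, under 1 FPKM in every library, was lower in each ZA library than in each Ctrl library. Such separation was found for 6.76% of the genes tested, which do not include Cdh5. In bulk RNA, fewer cells of a type and less RNA per cell cannot be told apart, and the part of these markers in any result below was not tested. Library totals lay between 41230600 and 42155808 fragments, and tested carriers had between 99 and 16618 fragments in a library.

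No carrier passed the test after adjustment. With limma on log2(FPKM + 1) and Benjamini-Hochberg adjustment over 9798 genes, 0 of 34 carriers had an adjusted p under 0.05, where 0.367% of all genes tested did, and the smallest adjusted p of a carrier was 0.258. Without adjustment 1 of 34 carriers, Slc25a1, had a p under 0.05, where 12.3% of all genes tested did. It was higher in ZA, as were 7.5% of all genes at that p, and 0 carriers were lower, beside 4.85% of all genes. The same counts, 0 and 1, came from limma's voom on the fragments recovered from the FPKM values, which called 1.35% and 13.4% of all genes. In simulated data with 200 of 9798 genes changed 2-fold on the scale of FPKM + 1, 97% of the changed genes were called. For a low carrier that is more than 2-fold in FPKM, and smaller changes were not simulated. Groups did not overlap for 2 of 34 carriers (5.88%), Slc25a1 and Slc25a13, against 18.1% of all genes tested.

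The intervals were narrow. Log2 fold changes, given throughout as ZA minus Ctrl, lay between -0.10 and 0.13 over the 34 carriers on the scale of FPKM + 1, and 26 of them were within 0.05 of 0. For 20 of 34 carriers the 95% interval of the difference lay within a change of 1.1-fold in either direction, for 31 within 1.2-fold and for all 34 within 1.5-fold. That scale draws carriers of a few FPKM towards 0. In voom, which works on fragments, the log2 fold changes lay between -0.15 for Slc25a25 and 0.17 for Slc25a26, and the intervals of 16 carriers lay within 1.1-fold, of 27 within 1.2-fold and of all 34 within 1.5-fold. The median log2 fold change of the carriers was 0.012, beside 0.010 over all genes tested, and 22 of 34 carriers (64.7%) were on the higher side, beside 56.9% of all genes. With each library centred on its median, 16 of 34 were higher.

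**Figure D1:**
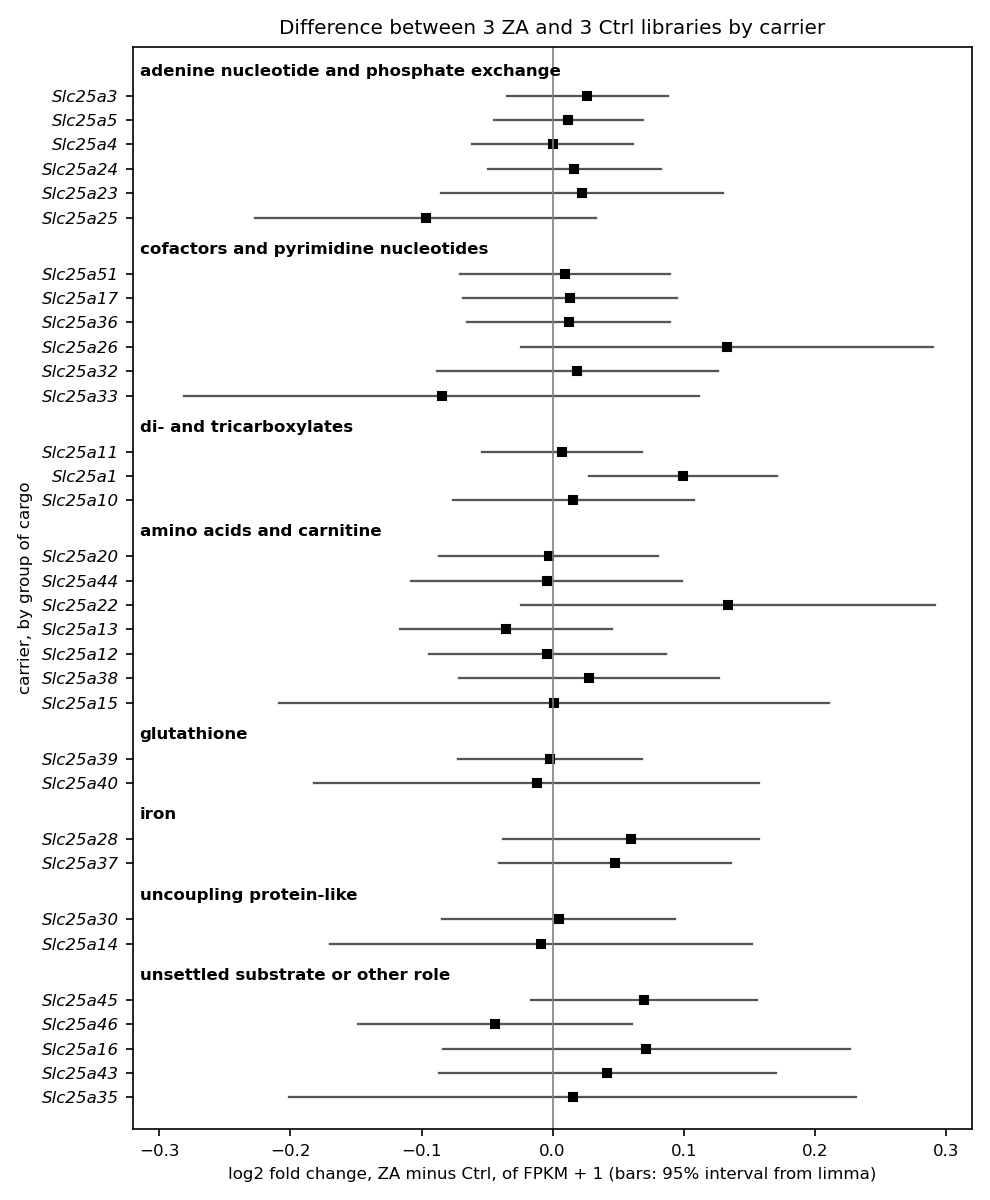
Log2 fold change (x axis, ZA minus Ctrl, on the scale of FPKM + 1) of 33 of the 34 tested carriers (y axis), grouped by cargo. Squares are estimates over 3 ZA and 3 Ctrl libraries and bars are 95% intervals from limma, and the interval of Slc25a1 lies above 0 while the others shown include it.

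Levels of the tested Slc25a carriers spanned a wide range and were stable from library to library. The mean level ran from 1.71 FPKM for Slc25a35 to 225 FPKM for Slc25a3, a ratio of 132, with a median of 7.54 FPKM over the 34 carriers and 9.04 FPKM over all genes tested. Slc25a3, Slc25a5 and Slc25a4 together made up between 58.9% and 59.7% of the summed FPKM of the carriers in every library. The coefficient of variation within a group had a median of 3.36% in Ctrl and 3.55% in ZA, and the highest were 20.8% for Slc25a35 in Ctrl and 17.5% for Slc25a33 in ZA, both near the low end of the tested levels. Within groups, the variance of the fragments was a median of 2.44 times that of counting alone.

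**Figure D2:**
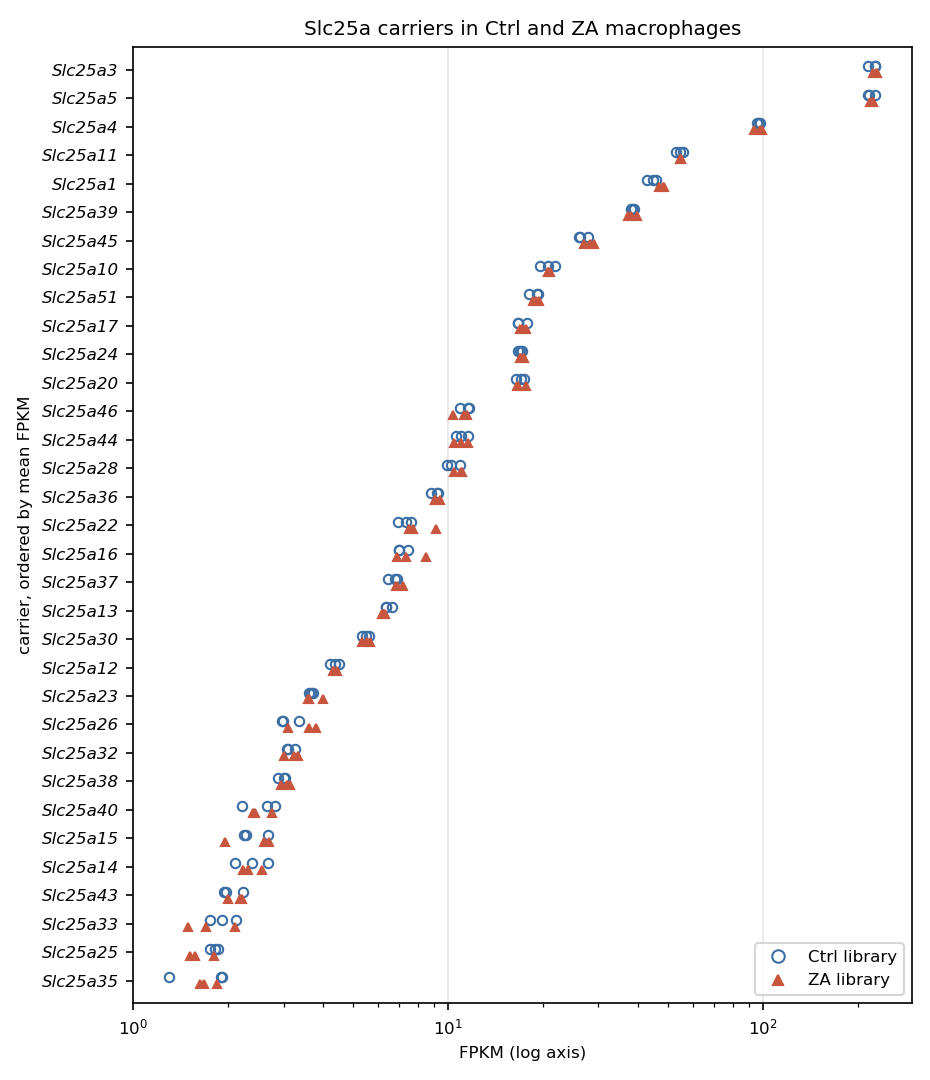
FPKM on a log axis (x axis) of 33 of the 34 tested carriers (y axis, ordered by their mean), with an open circle for each of 3 Ctrl libraries and a triangle for each of 3 ZA libraries. Symbols of both groups lie close together at every level, from Slc25a35 near 1.71 FPKM to Slc25a3 near 225 FPKM.

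Summed over the 34 carriers, the level was 907.9, 902.6 and 914.3 FPKM in Ctrl 1, 2 and 3 and 925.1, 911.0 and 928.0 FPKM in ZA 1, 2 and 3. Thus ZA 2 fell between Ctrl 2 and Ctrl 3, and the groups overlapped. The sum was 908.3 ± 5.90 FPKM in Ctrl and 921.4 ± 9.09 FPKM in ZA (SD, n = 3 each), a difference of 13.1 FPKM with p = 0.2 in a two-sided exact permutation test, for which 0.1 is the smallest p that 3 libraries against 3 allow. Scaled to the same median FPKM of the tested genes, the difference was 4.31 FPKM.

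The most abundant of the Slc25a carriers were those of ATP synthesis. Slc25a3, the phosphate carrier, had 215, 227 and 227 FPKM in Ctrl 1, 2 and 3 and 229, 224 and 229 FPKM in ZA 1, 2 and 3. Its log2 fold change was 0.03 (SE 0.03, limma adjusted p = 0.73). Slc25a5, the adenine nucleotide carrier of proliferating cells, had 227, 216 and 218 FPKM in Ctrl and 224, 219 and 223 FPKM in ZA. Levels of these carriers overlapped each other as well as between groups, and their order cannot be told from 6 libraries. Slc25a4, the adenine nucleotide carrier known for its high level in heart and muscle, had 97.8, 95.9 and 97.4 FPKM in Ctrl and 97.8, 94.0 and 99.4 FPKM in ZA, with a 95% interval of the log2 fold change of -0.06 to 0.06. Between the phosphate carrier and Slc25a4 the ranges did not touch in any library.

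Calcium-regulated carriers that exchange ATP-Mg for phosphate were lower in level. Slc25a24 had 17.2, 16.9 and 16.6 FPKM in Ctrl and 16.98, 16.9 and 17.4 FPKM in ZA, and Slc25a23 had 3.71, 3.60 and 3.68 FPKM in Ctrl and 4.01, 3.59 and 3.62 FPKM in ZA. In Slc25a23, ZA 1 stood above the other 5 libraries, which lay between 3.59 and 3.71 FPKM. The third of these carriers, Slc25a25, had the lowest log2 fold change of the family. It was at 1.82, 1.76 and 1.85 FPKM in Ctrl and at 1.51, 1.81 and 1.57 FPKM in ZA. ZA 1 and ZA 3 were under every Ctrl library and ZA 2 was among them, and the log2 fold change was -0.10 (SE 0.06, limma adjusted p = 0.529). Without ZA 2 it was -0.15, and its unadjusted limma p fell under 0.05 while the adjusted p was 0.465. Without ZA 1 it was -0.06 (limma adjusted p = 0.702), and voom gave -0.15 (adjusted p = 0.3755).

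Carriers of di- and tricarboxylates held the one gene with an unadjusted p under 0.05. Slc25a1, the citrate carrier, had 44.7, 42.8 and 45.7 FPKM in Ctrl 1, 2 and 3 and 46.6, 48.3 and 48.0 FPKM in ZA 1, 2 and 3. Every ZA library was above every Ctrl library, as in 11.3% of all genes tested, and the gap between Ctrl 3 and ZA 1 was smaller than the range within Ctrl. The mean was 44.4 ± 1.51 FPKM in Ctrl and 47.6 ± 0.90 FPKM in ZA (SD, n = 3 each), a log2 fold change of 0.10 (SE 0.03, 95% interval 0.03 to 0.17), which failed the adjustment over all genes (limma adjusted p = 0.258). Without Ctrl 2, its lowest library, the log2 fold change was 0.07 and the unadjusted p was no longer under 0.05 (limma adjusted p = 0.5135). Over 14 alternatives that include it, the log2 fold change lay between 0.07 and 0.12 and the limma adjusted p between 0.196 and 0.5135.

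Neither of the other dicarboxylate carriers moved beyond its spread. Slc25a11, which exchanges 2-oxoglutarate for malate and is part of the malate-aspartate shuttle, had 54.6, 52.8 and 55.7 FPKM in Ctrl and 54.8, 54.4 and 54.7 FPKM in ZA. All 3 ZA libraries lay inside the Ctrl range, and the 95% interval of the log2 fold change was -0.05 to 0.07. Slc25a10, which exchanges malate and succinate for phosphate, was at 20.68 ± 1.148 FPKM in Ctrl and 20.9 ± 0.18 FPKM in ZA (SD, n = 3 each, adjusted p = 0.907). Slc25a21, the carrier of oxoadipate, was listed at 0 in all 6 libraries.

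Because Slc25a1 was the one carrier below 0.05 before adjustment, the 250 bases before its RefSeq start are shown (build GRCm38.p6, chr16:17928220-17928469, minus strand, printed 5′ to 3′ along the gene). Capitals mark an E-box, CACGTG, whose first base is 239 bases before the start, and a CCAAT box, read here on the opposite strand as ATTGG, 125 bases before the start.
Slc25a1: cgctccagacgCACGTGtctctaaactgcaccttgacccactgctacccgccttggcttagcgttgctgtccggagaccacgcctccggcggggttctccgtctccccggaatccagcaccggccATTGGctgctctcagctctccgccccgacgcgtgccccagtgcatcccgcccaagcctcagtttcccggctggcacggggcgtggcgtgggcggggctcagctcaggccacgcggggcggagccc

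Searched on both strands, CCAAT was in 33.8% and CACGTG in 6.02% of the 32851 promoter windows of this length in the RefSeq table. For the Slc25a carriers 36 of 47 had windows in that table, 46 in all, of which 21 (45.7%) held CCAAT and 8 (17.4%) held CACGTG. The E-box windows belonged to Slc25a1, Slc25a13, Slc25a14, Slc25a15, Slc25a31, Slc25a33 and Slc25a36, whose tested members lay on both sides of 0 in log2 fold change. The letters TCACNCCAC, a sterol regulatory element, were in 1.05% of all windows and in that of Slc25a18 but not in this window of Slc25a1. These matches describe letters and not binding, and the motifs do not overlap each other in Slc25a1.

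Amino acid and carnitine carriers varied little, with 3 of 7 tested members higher and 4 lower. Slc25a22, a carrier that takes glutamate in with a proton, had the highest log2 fold change of the family on the scale of FPKM + 1, level to 2 decimals with that of Slc25a26, which was the higher with a pseudocount of 0.1 (0.17 against 0.15) and in voom (0.17 against 0.15). Its level was 6.95, 7.34 and 7.63 FPKM in Ctrl 1, 2 and 3 and 7.495, 7.74 and 9.17 FPKM in ZA 1, 2 and 3. ZA 3 stood apart from the other 5 libraries, while ZA 1 lay inside the Ctrl range. The log2 fold change was 0.13 (SE 0.07, 95% interval -0.02 to 0.29, limma adjusted p = 0.477), and without ZA 3 it was 0.05 (adjusted p = 0.76). Without ZA 1 it was 0.18, with an unadjusted limma p under 0.05 and an adjusted p of 0.294.

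Slc25a12 and Slc25a13, known as aralar and citrin, exchange aspartate for glutamate and complete the malate-aspartate shuttle. Slc25a12 had 4.23, 4.52 and 4.36 FPKM in Ctrl and 4.43, 4.33 and 4.30 FPKM in ZA, all ZA libraries inside the Ctrl range. Slc25a13 had 6.33, 6.62 and 6.35 FPKM in Ctrl and 6.30, 6.17 and 6.28 FPKM in ZA, so that each ZA library was below each Ctrl library, at the closest by 0.38% of the Ctrl mean. Groups that do not overlap with ZA lower were found for 6.76% of all genes tested, and the log2 fold change of -0.04 had an adjusted p of 0.726 in limma. The carnitine and acylcarnitine carrier Slc25a20, which brings fatty acids in for oxidation, was at 16.98 ± 0.49 FPKM in Ctrl and 16.9 ± 0.62 FPKM in ZA (SD, n = 3 each). Slc25a44, a carrier of branched-chain amino acids, had 11.04 FPKM in Ctrl and 11.01 FPKM in ZA. Slc25a38, which serves glycine for heme synthesis, and the ornithine carrier Slc25a15 were between 1.95 and 3.14 FPKM in all libraries, and their adjusted p-values were 0.834 and 0.999.

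For the carriers of cofactors and pyrimidine nucleotides 5 of 7 tested members were higher and 2 lower, and none had an unadjusted p under 0.05. Slc25a26, which brings S-adenosylmethionine into mitochondria as the methyl donor, had 2.98, 2.97 and 3.35 FPKM in Ctrl and 3.61, 3.09 and 3.80 FPKM in ZA. ZA 1 and ZA 3 were above every Ctrl library and ZA 2 lay inside the Ctrl range, with a log2 fold change of 0.13 (SE 0.07, limma adjusted p = 0.477). Leaving out ZA 2 raised it to 0.20, with an unadjusted limma p under 0.05 and an adjusted p of 0.367, and leaving out ZA 3 lowered it to 0.09 (limma adjusted p = 0.741). Without Ctrl 3 it was 0.18, also with an unadjusted p under 0.05 (limma adjusted p = 0.399).

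Slc25a33 and Slc25a36 carry pyrimidine nucleotides for mitochondrial DNA and RNA synthesis. Slc25a33 had 1.91, 1.75 and 2.11 FPKM in Ctrl and 1.49, 1.70 and 2.10 FPKM in ZA. It spread more widely within ZA than any other tested carrier, between 141 and 203 fragments over the 6 libraries, and its log2 fold change was -0.08 (SE 0.09, limma adjusted p = 0.731). Single libraries made it larger or smaller. Without ZA 3 it was -0.17, with an unadjusted limma p under 0.05 and an adjusted p of 0.512, while without ZA 1 it was -0.01 (limma adjusted p = 0.967) and without Ctrl 3 it was -0.04 (limma adjusted p = 0.911). Voom gave -0.13 (adjusted p = 0.749). Slc25a36 had 9.25, 8.85 and 9.22 FPKM in Ctrl and 9.07, 9.11 and 9.40 FPKM in ZA.

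In the same group the NAD carrier Slc25a51 was at 18.8 ± 0.68 FPKM in Ctrl and 19.0 ± 0.43 FPKM in ZA, and the peroxisomal Slc25a17 at 17.1 ± 0.66 and 17.25 ± 0.38 FPKM (SD, n = 3 each). Slc25a32, which carries folate and is linked to FAD, had 3.14 FPKM in Ctrl and 3.20 FPKM in ZA. The summed level of the 7 carriers was 59.6 to 60.2 FPKM in Ctrl and 59.4 to 61.4 FPKM in ZA.

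Glutathione, which guards the matrix against oxidants, is brought in by Slc25a39 and Slc25a40. Slc25a39 had 38.1, 39.0 and 38.3 FPKM in Ctrl and 39.9, 38.1 and 37.3 FPKM in ZA, with a 95% interval of the log2 fold change of -0.07 to 0.07. Slc25a40 was low beside it, at 2.83, 2.67 and 2.21 FPKM in Ctrl and 2.43, 2.76 and 2.40 FPKM in ZA. Ranges of the groups overlapped for both.

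Both mitoferrins were expressed. Slc25a28, mitoferrin-2, which is found in many tissues, had 10.9, 9.90 and 10.2 FPKM in Ctrl and 11.04, 10.4 and 11.01 FPKM in ZA. Slc25a37, mitoferrin-1, known from erythroid cells, had 6.88, 6.77 and 6.45 FPKM in Ctrl and 6.84, 6.86 and 7.18 FPKM in ZA. The log2 fold changes were 0.06 and 0.05 with adjusted p-values of 0.607 and 0.656 in limma, and for each the ranges overlapped. Of the 8 erythroid markers 1, Hba-a1, reached 1 FPKM, at 0.343 to 2.54 FPKM in Ctrl and 0.764 to 1.82 FPKM in ZA, while Alas2 stayed at or under 0.0121 FPKM.

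Relatives of the uncoupling proteins, Slc25a30 and Slc25a14, had 5.48 and 2.39 FPKM in Ctrl and 5.51 and 2.37 FPKM in ZA. Among proteins of unsettled cargo or another role, Slc25a45 was the most abundant, with 26.6 ± 0.97 FPKM in Ctrl and 28.0 ± 1.03 FPKM in ZA (SD, n = 3 each), and its ranges overlapped (log2 fold change 0.07, limma adjusted p = 0.487). Slc25a46, which acts in the shape of mitochondria at the outer membrane, had 11.7, 10.9 and 11.5 FPKM in Ctrl and 11.2, 10.3 and 11.5 FPKM in ZA. It had the third lowest log2 fold change, -0.04 (SE 0.05, adjusted p = 0.739). Slc25a16, Slc25a43 and Slc25a35 had adjusted p-values between 0.713 and 0.965. The summed level of these 5 genes was 47.7 to 49.5 FPKM in Ctrl and 49.6 to 51.7 FPKM in ZA, so that the ranges did not overlap, with a gap far smaller than the range within either group.

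**Figure D3:**
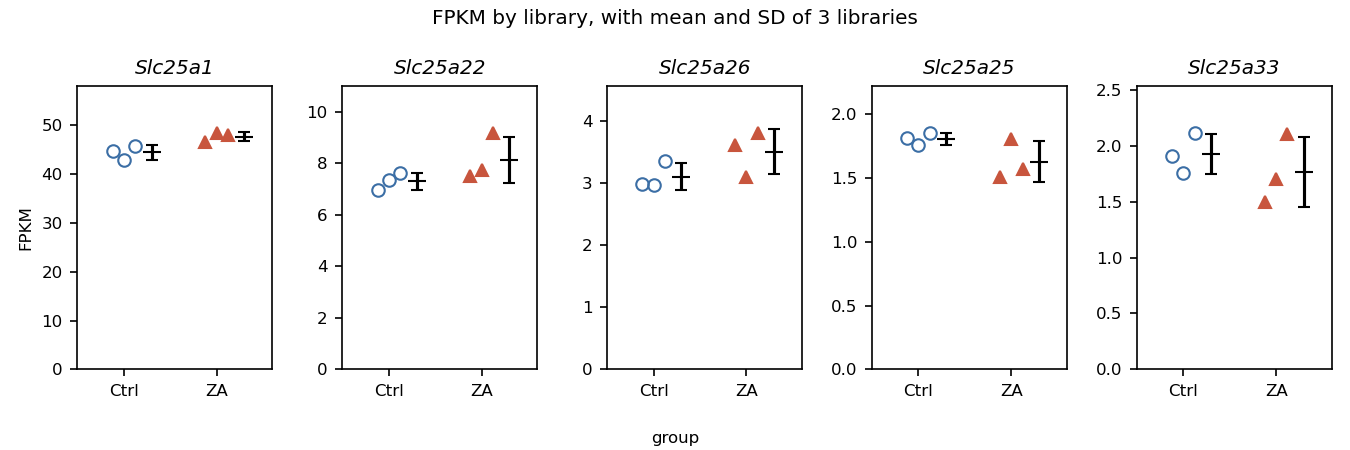
FPKM (y axis, from 0) by library of the carriers with the 3 highest and the 2 lowest log2 fold changes, with open circles for the 3 Ctrl libraries, triangles for the 3 ZA libraries and, beside them, the mean and SD of each group. Ranges of the groups are separate in Slc25a1 and overlap in Slc25a22, Slc25a26, Slc25a25 and Slc25a33.

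Some carriers are paralogs of like cargo, and the balance within each of 6 such pairs was compared between the groups. The ratio of Slc25a4 to Slc25a5 was 0.431, 0.444 and 0.447 in Ctrl 1, 2 and 3 and 0.437, 0.429 and 0.446 in ZA 1, 2 and 3, so the carrier known from heart and muscle was the lower partner in every library. Aralar stood to citrin (Slc25a12 to Slc25a13) at 0.668, 0.683 and 0.687 in Ctrl and 0.703, 0.702 and 0.685 in ZA. For mitoferrin-1 to mitoferrin-2 these values were 0.631, 0.684 and 0.630 in Ctrl against 0.620, 0.658 and 0.652 in ZA. In all libraries, then, the partner with the higher level was the same.

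Slc25a24 exceeded Slc25a23 by 4.63, 4.68 and 4.52 times in Ctrl and 4.24, 4.71 and 4.80 times in ZA. Slc25a33 stood to Slc25a36 at 0.206, 0.198 and 0.229 in Ctrl 1, 2 and 3 against 0.165, 0.187 and 0.224 in ZA 1, 2 and 3, the widest spread of the 6 pairs within ZA relative to its mean. Slc25a40 stood to Slc25a39 at 0.0743, 0.0684 and 0.0578 in Ctrl and 0.0610, 0.0725 and 0.0645 in ZA. In no pair were the groups separate. Two-sided exact permutation tests on the log2 ratios gave p between 0.2 and 1 over the 6 pairs, adjusted p = 1 for each, where 0.1 is the smallest p the design allows.

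**Figure D4:**
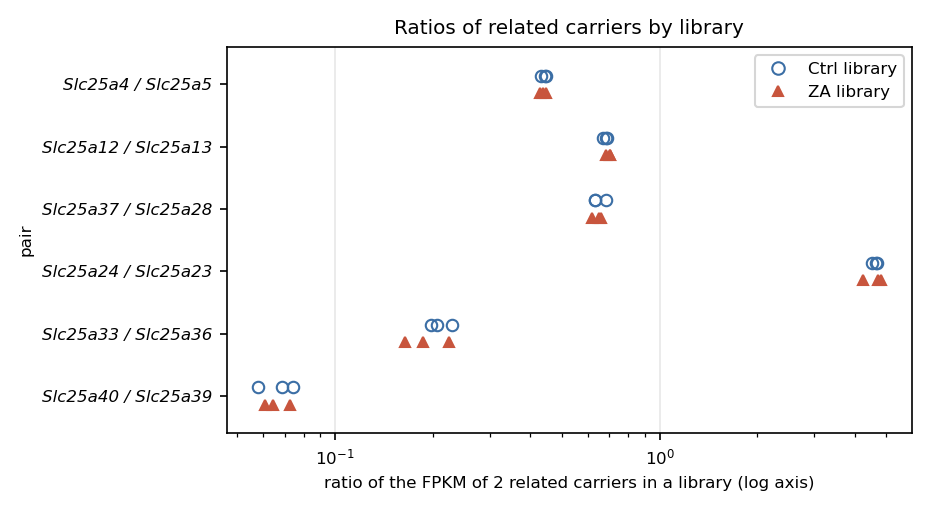
Ratio of the FPKM of 2 related carriers within a library (x axis, log scale) for 6 pairs (y axis), with open circles for Ctrl and triangles for ZA libraries, 3 each. Ctrl and ZA symbols overlap in every pair, and the mean ratios run from near 0.066 for Slc25a40 to Slc25a39 up to near 4.6 for Slc25a24 to Slc25a23.

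The 13 carriers under the level of the test ranged from 0 to 0.754 FPKM on average. Slc25a42, a coenzyme A carrier, was closest to the limit, with 0.764 ± 0.093 FPKM in Ctrl and 0.744 ± 0.063 FPKM in ZA (SD, n = 3 each), while Slc25a35, the lowest carrier above it, was at 1.71 FPKM. The basic amino acid carrier Slc25a29 had 9 to 24 fragments a library and a mean of 0.183 FPKM in Ctrl and 0.237 FPKM in ZA. Slc25a27 (an uncoupling protein relative), Slc25a53, Slc25a47, Slc25a2 (an ornithine carrier), Slc25a18 (a glutamate carrier), Slc25a31 (the adenine nucleotide carrier of the germ line) and Slc25a34 were at or under 0.252 FPKM in every library. Slc25a21, Slc25a41, Slc25a48 and Slc25a54 were listed at 0 in all 6 libraries, and a count of 0 allows up to 3 fragments a library, by counting error only. With no filter on level 43 carriers could be tested with limma, and Slc25a1 was again the one carrier with an unadjusted p under 0.05, while 0 had an adjusted p under 0.05.

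Other family 25 proteins go by other symbols and were read beside the Slc25a carriers. Ucp2, an uncoupling protein relative of immune cells, exceeded each of them per length, at 508, 504 and 487 FPKM in Ctrl and 495, 490 and 476 FPKM in ZA (log2 fold change -0.04, limma adjusted p = 0.60). The outer membrane proteins Mtch1 and Mtch2 were at 57.1 and 25.2 FPKM in Ctrl and at 57.9 and 24.1 FPKM in ZA. Every ZA library of Mtch2 was below every Ctrl library (limma adjusted p = 0.413), as in 6.76% of all genes tested. At the closest, Ctrl 3 had 24.73 FPKM and ZA 2 had 24.62 FPKM. Ucp1 and Ucp3 stayed at or under 0.0437 FPKM. Of 5 such genes 3 were tested, and 0 had a limma p under 0.05 with or without adjustment.

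Among 22 other mitochondrial transporters and channels 21 were tested, 8 higher and 13 lower, where 56.9% of all genes tested were higher, and 1 had an unadjusted p under 0.05, where 12.3% of all genes did. That was Smdt1, the EMRE subunit of the calcium uniporter, at 55.6 ± 0.74 FPKM in Ctrl and 52.5 ± 2.41 FPKM in ZA (SD, n = 3 each, log2 fold change -0.08, limma adjusted p = 0.391). Its groups overlapped. Next came the outer membrane channel Vdac2, with a log2 fold change of -0.04 (adjusted p = 0.453), and Mpc1, a subunit of the pyruvate carrier, with -0.10 (adjusted p = 0.461).

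Enzymes that use the cargo of the carriers were listed as well, 45 genes of which 40 were tested. Without adjustment 5 were higher and 2 lower at a p under 0.05, together 7 of 40 against 12.3% of all genes tested, and 0 had an adjusted p under 0.05 in limma. Their median log2 fold change was -0.004. Acly, which cleaves the citrate that Slc25a1 exports, had 24.9, 24.3 and 24.9 FPKM in Ctrl 1, 2 and 3 and 26.1, 26.6 and 26.3 FPKM in ZA 1, 2 and 3. All ZA libraries were above all Ctrl libraries, as in 11.3% of all genes tested. The log2 fold change of Acly was 0.09 (SE 0.03, limma adjusted p = 0.243). Gclm, the modifier subunit of glutathione synthesis, had 25.1, 25.25 and 23.2 FPKM in Ctrl and 27.8, 27.6 and 26.1 FPKM in ZA, also without overlap (log2 fold change 0.14, SE 0.04, limma adjusted p = 0.209). Pck2, the mitochondrial enzyme that makes phosphoenolpyruvate, had a log2 fold change of 0.14 (adjusted p = 0.292) and groups that overlapped.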

How the data were processed

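BMDM libraries, 3 Ctrl and 3 ZA, were prepared with the VAHTS kit according to the paper, while the labels name that kit and a SMARTER kit, and were read as 150-base pairs. The authors deposited 1 table of FPKM values without further scaling between libraries, and the submitters' processing notes name the build mm9. The aligner, the counter and the annotation are not given in the sources used here. In the deposited table, separators are lost in all but 11 of 35434 rows. Each run of digits was divided where the printed precision of the values allows it and, where several divisions were left, where all 6 values gave whole fragments for one gene length and the library totals. This restored 35333 rows, 22829 with a single possible reading and 12504 by whole fragments, and 101 rows were left out. All 11 intact rows came out identical, and of 3000 simulated rows 2995 were restored exactly and 0 wrongly. In every library 99.7% of the fragments were recovered.

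On the scale log2(FPKM + 1), the groups were compared by limma 3.58.1 (lmFit, eBayes with a trend, R 4.3.3), two-sided, over 9798 genes with a mean of at least 1 FPKM, with Benjamini-Hochberg adjustment and a threshold of 0.05. A fold change on this scale understates the change of low genes. Sums and ratios were tested with two-sided exact permutation tests over libraries. Scripts ran in Python 3.11.15 (NumPy 2.4.6, pandas 2.3.3), with plots by Matplotlib 3.10.9. Groups and replicate numbers came from the sample labels. Libraries of a group were not duplicates, with a chi-square per gene of 3.52 to 9.73 over the pairs. The test was checked on simulated data with 200 of 9798 genes changed 2-fold on the scale of FPKM + 1. Of the unchanged genes 8 were called, and 0 were called with none changed.

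The members, the lists and the pairs were chosen with earlier results of these data known. Values per library are given for the 5 carriers with the highest mean, those with an unadjusted p under 0.05, the 3 highest and 3 lowest log2 fold changes and the members of pairs, and from each list of other genes the 3 with the smallest p are named. Of the tested carriers 1 enters the counts and sums but is not reported here by name or drawn. Further genes of those lists, markers and Slc25a45 were named after their values were seen. As alternatives, the comparison was repeated with a pseudocount of 0.1, without a filter, with a filter at 5 FPKM, centring, quantile normalization, a prior without a trend, the replicate block, voom, rows with a single reading and leaving out each library. With the transcripts of GENCODE M21, stretches of 150 bases shared with other genes made up 15.2% of Slc25a35, 7.59% of Slc25a33, 5.79% of Slc25a37, 5.62% of Slc25a40, 5.33% of Slc25a46, 5% of Slc25a36, 4.22% of Slc25a10 and 0.226% of Slc25a12, and none of the other 26 tested carriers, and how the authors counted such reads is not given, so levels of the 8 named carriers are uncertain to that extent.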

Additional observations from a re-analysis of the deposited data

How the results depend on the processing

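In limma 0 carriers had an adjusted p under 0.05 in each of 15 alternatives, and the median log2 fold change of the carriers stayed between -0.0004 and 0.022. The count at an unadjusted p under 0.05, 1 as reported, was between 0 and 3 when 1 library was left out. It was 0 among the 11 carriers in rows with a single reading, which do not include Slc25a1. Without Ctrl 2 it was 0, without ZA 1 it was 2 and without Ctrl 3 it was 3, all of them higher in ZA. Without ZA 2 or ZA 3 it was also 3, in each case 2 higher and 1 lower. The lower carrier was Slc25a25 without ZA 2 and Slc25a33 without ZA 3. For fits without 1 library the count is given without the share of all genes, so its rise cannot be judged. With the replicate number as a block it was 3, namely Slc25a1, Slc25a22 and Slc25a26, while the share of all genes rose from 12.3% to 15.4% and the adjusted count stayed at 0. Deviations of libraries with the same number correlated at r = 0.284, 0.0393 and 0.280 for numbers 1, 2 and 3. Each library correlated best with its own number, and the other combinations gave r between -0.297 and 0.0334. The main fit did not take the numbers as pairs, and whether they mark a shared batch was not tested.

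Of 19 carriers with alternatives computed, 11 kept their direction throughout. Centring turned Slc25a5 to -0.00055, Slc25a11 to -0.0052 and Slc25a36 to -0.00031, and quantile normalization turned Slc25a5 to -0.0014 and Slc25a4 to 0.011, all within their errors. Leaving out 1 library gave log2 fold changes of -0.0024 to 0.034 for Slc25a5, -0.017 to 0.023 for Slc25a4, -0.013 to 0.025 for Slc25a11, -0.023 to 0.016 for Slc25a12, -0.018 to 0.045 for Slc25a23, -0.0063 to 0.022 for Slc25a36, -0.086 to 0.040 for Slc25a40 and -0.028 to 0.019 for Slc25a39. Ratios of pairs, as log2 differences, ran from -0.028 to 0.0023 for Slc25a4 to Slc25a5, from -0.031 to 0.028 for Slc25a37 to Slc25a28, from -0.045 to 0.045 for Slc25a24 to Slc25a23 and from -0.115 to 0.067 for Slc25a40 to Slc25a39, and kept their sign for the other pairs. The difference of the summed level ran from 9.82 to 18.3 FPKM when 1 library was left out. None of the carriers whose direction changed had a limma p under 0.05 in any alternative. Of the 11 that kept theirs, Slc25a1, Slc25a22, Slc25a26, Slc25a25 and Slc25a33 had an unadjusted one in at least 1 alternative. For the ratios and the summed level the exact test cannot go under 0.1 even with all 6 libraries, so it could not pass 0.05. Depth limits carriers under 1 FPKM most, and counting error alone is 10.1% for the tested carrier with the fewest fragments.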
